A study of Mus musculus with 14 samples.

Results

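Zic1, Zic2, Zic4 and Zic5 encode zinc finger transcription factors and lie in the mouse genome as a pair of divergently transcribed gene couples, Zic1 with Zic4 on chromosome 9 and Zic5 with Zic2 on chromosome 14. H3K27me3, the repressive trimethylation of lysine 27 on histone H3, was examined at these genes in primary hippocampal neurons after knockdown of the long noncoding RNA NeuID. The members were the listed H3K27me3 peaks that overlapped the body of 1 of the 4 genes or the 20 kb on either side of it in the GENCODE M21 annotation. They numbered 41 of 23668 listed peaks, of which 29 lay at Zic1/Zic4 and 12 at Zic2/Zic5.

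The labels give 6 control and 6 NeuID knockdown ChIP libraries of wild-type cells and 1 input library for each condition. The neurons came from the hippocampi of late-gestation CD1 mouse embryos of mixed sex. Both groups received lipid nanoparticles with a gapmer, an antisense oligomer that directs cleavage of the RNA it pairs with. The gapmer targeted NeuID in the knockdown group and has no known target in the control group. How far NeuID itself was reduced cannot be read from H3K27me3 peaks. A culture of dissected hippocampus can hold more than neurons. Of 12 neuronal marker genes, 4 (Syt1, Slc17a7, Gad1 and Prox1) had a listed peak within 1 kb of the gene start, as did 3 of 12 glial markers (Olig1, Olig2 and Pdgfra) and 9.78% of all 21938 protein-coding genes. H3K27me3 at a gene start gives no count of cell types, so the label could not be tested further.

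Zic proteins resemble the Gli factors of hedgehog signalling in their zinc fingers. They act in the dorsal neural tube, the neural crest, the developing cerebellum and the medial forebrain, and loss of ZIC2 in humans can cause holoprosencephaly, a failure of the forebrain to divide. Polycomb repressive complex 2 places H3K27me3 over developmental regulators of this kind in cells that do not use them, often as wide domains at CpG-rich gene starts.

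The promoters are shown first because Zic5 differed from the other genes in H3K27me3 coverage there. RefSeq entries (GRCm38.p6, the assembly of mm10) were found for 3 of the 4 genes, Zic1, Zic4 and Zic5. Each ran from 250 bases before to 50 bases after a start of the gene. The Zic4 entry lies inside the gene, downstream of the most upstream Zic4 start in GENCODE M21. CG dinucleotides are in capitals.

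Zic1, chr9:91365719-91366018, minus strand: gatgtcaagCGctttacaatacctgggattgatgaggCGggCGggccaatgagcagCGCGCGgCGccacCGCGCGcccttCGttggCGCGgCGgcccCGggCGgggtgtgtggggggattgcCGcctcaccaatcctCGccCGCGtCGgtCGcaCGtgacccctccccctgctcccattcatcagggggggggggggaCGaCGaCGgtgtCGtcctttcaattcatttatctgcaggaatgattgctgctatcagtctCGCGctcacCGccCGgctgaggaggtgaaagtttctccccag
Zic4, chr9:91368722-91369021, plus strand: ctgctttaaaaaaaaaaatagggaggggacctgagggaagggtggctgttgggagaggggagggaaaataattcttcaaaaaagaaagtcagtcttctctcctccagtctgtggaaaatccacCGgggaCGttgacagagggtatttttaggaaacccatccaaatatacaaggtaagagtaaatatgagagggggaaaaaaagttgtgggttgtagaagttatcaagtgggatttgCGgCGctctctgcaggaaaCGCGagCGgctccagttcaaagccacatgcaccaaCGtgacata
Zic5, chr14:122465609-122465908, minus strand: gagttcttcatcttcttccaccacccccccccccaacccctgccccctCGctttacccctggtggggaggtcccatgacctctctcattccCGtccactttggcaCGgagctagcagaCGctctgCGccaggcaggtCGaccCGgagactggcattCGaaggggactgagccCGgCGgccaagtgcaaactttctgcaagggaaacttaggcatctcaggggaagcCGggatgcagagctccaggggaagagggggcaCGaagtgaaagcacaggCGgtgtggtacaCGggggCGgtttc

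The letters CG, which read the same on both strands, occurred 31 times in the Zic1 promoter, 15 times in that of Zic5 and 8 times in that of Zic4. At least 1 CG was present in 94.6% of 32851 promoters of this length. As many as at Zic1 were found in 10.6% of them, as many as at Zic5 in 34.6% and as many as at Zic4 in 48.7%. Listed H3K27me3 peaks covered all 300 bases of the Zic1 promoter and 285 of the 300 at Zic4. None overlapped the Zic5 promoter. The start of Zic2 also lay in a listed peak.

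To ask whether knockdown of NeuID was accompanied by a different H3K27me3 level at the Zic genes, the authors' group means were compared peak by peak. These means are on the log2 scale of normalized reads per library, and a difference is the knockdown mean minus the control mean. A peak was counted as lower or higher in the knockdown when the difference was at least 1 in size, or 2-fold. Only group means were used, so the spread between libraries is unknown here, and whether any difference exceeds that spread was not tested. The relative weight of the groups in the overall mean was that of 6 control and 5 knockdown libraries, so the means appear to hold 11 of the 12 labelled ChIP libraries. The study's text gives a smaller, equal number per group, and which libraries entered the means is not known here. Over all listed peaks, the summed reads of the knockdown came to 97.1% of the control.

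At Zic1/Zic4, 6 of 29 peaks were lower and 2 were higher in the knockdown, while 20.6% of all listed peaks were lower and 20.4% were higher. At Zic2/Zic5, 1 of 12 peaks was lower and 4 were higher. The share of lower peaks at Zic1/Zic4, 20.7%, was thus that of the background, the share of higher peaks there, 6.90%, was under it, and the share of higher peaks at Zic2/Zic5, 33.3%, was over it, on small numbers of peaks. The median difference was -0.12 at Zic1/Zic4 and 0.19 at Zic2/Zic5, against -0.02 over all listed peaks, and at Zic1/Zic4 it changed sign, to 0.12, among the 15 stronger peaks, and it was also above 0 among the wide peaks, over the gene bodies alone and with 5 or 50 kb on each side. Summed reads at Zic1/Zic4 went from 872 in the control to 823 in the knockdown, or 94.3%, close to the ratio over all peaks. At Zic2/Zic5 they went from 158 to 208, or 132%. Without its strongest peak, the one over the Zic2 start, the log2 ratio of summed reads at Zic2/Zic5 went from 0.40 to 0.15.

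Zic1 and Zic4 shared a dense H3K27me3 domain. Zic1 (ENSMUSG00000032368.14, chr9:91358058-91365810, minus strand) is a marker of cerebellar granule cells and their precursors, and Zic4 (ENSMUSG00000036972.14, chr9:91362413-91389348, plus strand) is expressed with it in much of the dorsal nervous system. In this annotation the most upstream Zic4 transcript begins inside Zic1, so that the genes overlap. The 29 peaks covered 48.7% of the 71.3 kb window, with a median gap of 631 bases and a longest gap of 3.85 kb. Among 21938 protein-coding genes, the window of Zic4 ranked 25th by number of peaks and that of Zic1 72nd. Zic4 held 15 peaks over its body and Zic1 held 4, some of them shared.

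All 11 wide peaks of this domain stayed within the limit. Their differences, for a width of at least 1 kb, lay between -0.56 and 0.82, and their summed reads in the knockdown were 104% of the control. The widest and strongest (chr9:91383330-91387661), 4332 bases long over coding exons and UTR of Zic4, was at 6.84 in the control and 6.79 in the knockdown. A 3661 base peak over coding exons of Zic4 (chr9:91375841-91379501) was at 6.56 and 6.72. The absence of lower or higher peaks among these 11 sits beside 7.91% lower and 5.08% higher among all 2301 listed peaks of this width.

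**Figure D1:**
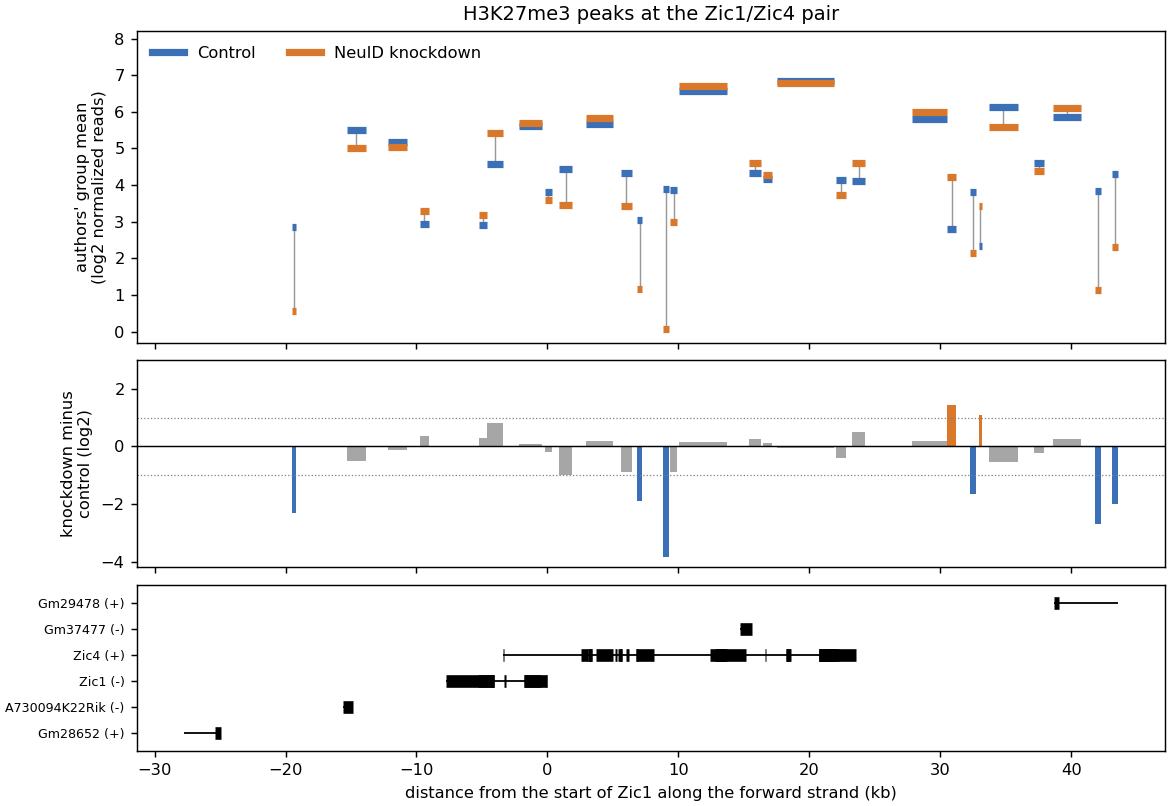
H3K27me3 at the Zic1/Zic4 pair. The top panel gives the authors' control and NeuID knockdown means (log2 normalized reads) over the extent of each of the 29 peaks, the middle panel their difference, with blue for lower and orange for higher peaks and dotted lines at the limit of 1, and the bottom panel the annotated genes with exons as thick bars; the 11 wide peaks differ by less than 1, and the 6 lower peaks are narrow.

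Around the starts of both genes the differences stayed within the limit. The Zic1 start lay in a 487 base peak (chr9:91365641-91366127) that covered its whole printed promoter, with a mean of 3.81 in the control and 3.60 in the knockdown. A 1774 base peak 407 bases inside the gene (chr9:91363630-91365403), over coding exon and UTR, was at 5.61 and 5.71. Upstream, 896 bases from the start, a peak in a Zic4 intron (chr9:91366706-91367682) was at 4.45 in the control and 3.47 in the knockdown, a difference of -0.98 that missed the limit narrowly. The most upstream Zic4 start lay in a peak over the Zic1 coding exon and UTR (chr9:91361205-91362455), which was at 4.59 and 5.41 and thus 1.77-fold higher in the knockdown. The promoter of Zic4 printed above belongs to a 2108 base peak (chr9:91368737-91370844) over the starts of 4 other Zic4 transcripts, at 5.66 and 5.84. Peak by peak, then, the starts of Zic1 and Zic4 carried H3K27me3 in both groups.

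The 6 lower peaks were all narrow and weak. They were 339 to 463 bases wide, and their control means lay between 2.86 and 4.30. The lowest difference of all 41 peaks was in an intron of Zic4 (chr9:91374675-91375091, 12262 bases from the most upstream Zic4 start), at 3.90 against 0.08 in the knockdown. On the linear scale that is 14.9 and 1.05 normalized reads per library. The knockdown value lies next to 0, the lowest mean listed, so the size of the ratio is poorly fixed. A 408 base peak in an intron of the lincRNA gene Gm29478 (chr9:91407656-91408063) was at 3.83 and 1.15, and an intergenic peak beyond the 3' end of Zic1 (chr9:91346289-91346627) at 2.86 and 0.57.

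The other 3 lower peaks, named here because they complete the count, lay in Zic4, between genes and in Gm29478. A 379 base peak over a Zic4 coding exon (chr9:91372671-91373049) was at 3.05 and 1.16. The intergenic peak (chr9:91398121-91398558) was at 3.80 and 2.15, and the last peak of the window (chr9:91408915-91409377) at 4.30 and 2.30. Both higher peaks of the pair were intergenic, downstream of Zic4, and flanked that intergenic lower peak on either side. One of 708 bases (chr9:91396325-91397032) was at 2.80 and 4.23, and one of 227 bases (chr9:91398761-91398987) at 2.34 and 3.42.

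The lower and higher peaks at Zic1/Zic4 were all among its weaker ones. Of its 15 peaks whose overall mean reached 4, none was lower or higher, beside 9.12% lower and 5.02% higher among all 3344 listed peaks of that strength. Of its 14 weaker peaks, 6 were lower and 2 higher, beside 22.5% lower and 22.9% higher among the 20324 weaker listed peaks. The median difference of these 14 was -0.89, while that of all weaker listed peaks was 0.01. Summed reads of the 14 went from 172 in the control to 109 in the knockdown.

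**Figure D2:**
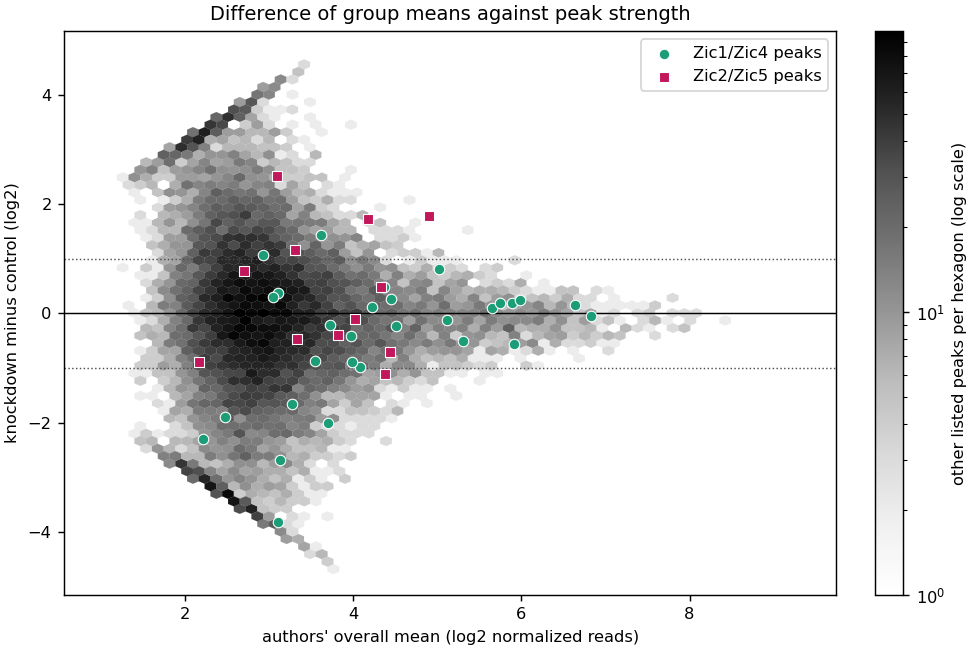
Difference of the group means (knockdown minus control, log2) against the authors' overall mean (log2 normalized reads). Grey hexagons hold the other listed peaks, circles the 29 Zic1/Zic4 peaks and squares the 12 Zic2/Zic5 peaks; differences narrow as peaks get stronger, and the square at an overall mean of 4.91 is the Zic2 start, with a difference of 1.79.

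Zic2 and Zic5 carried fewer peaks than Zic1 and Zic4, and those on Zic2 itself were higher in the knockdown. Zic2 (ENSMUSG00000061524.8, chr14:122475435-122479852, plus strand) is the factor whose loss can cause holoprosencephaly and which also steers uncrossed retinal axons. The noncoding gene 2610035F20Rik begins next to it on the other strand. Zic5 (ENSMUSG00000041703.7, chr14:122456795-122465677, minus strand) acts in neural crest development. The 12 peaks covered 14.4% of the 63.1 kb window, and the highest overall mean was 4.91, where 6.82 was reached at Zic1/Zic4. In reads per kb of peak, the control mean was 17.4 at Zic2/Zic5 and 25.1 at Zic1/Zic4, and the knockdown mean was 23.0 and 23.7.

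The peak over the Zic2 start was the widest and strongest of this pair (chr14:122474552-122476205, 1654 bases). It covered the gene start, UTR and coding sequence of the first exon of Zic2 together with the start of 2610035F20Rik. Its control mean was 3.82 and its knockdown mean 5.61, or 14.2 and 49.0 normalized reads per library, a 3.45-fold higher level. Of the 2367 strongest listed peaks, with overall means of 4.35 to 9.33, 11 (0.465%) had a difference this high. This peak lies near the weak end of that range, where differences are wider, and its difference is 1 of the highest of 41, so the share is a description only.

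The largest positive difference of all 41 peaks lay 3220 bases into Zic2 (chr14:122478655-122479183), across the intron before the last exon and the coding sequence on both sides. There the control mean was 1.44 and the knockdown mean 3.95, or 2.71 and 15.5 reads. The body of Zic2 thus held 2 listed peaks, both higher in the knockdown, with summed reads of 16.9 and 64.4.

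The 200 bases at the centre of this peak and of the lowest Zic4 intron peak are shown because they are the extremes of the 41 differences (GRCm38.p6, plus strand, CG in capitals).

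Zic2 coding sequence and intron, chr14:122478820-122479019: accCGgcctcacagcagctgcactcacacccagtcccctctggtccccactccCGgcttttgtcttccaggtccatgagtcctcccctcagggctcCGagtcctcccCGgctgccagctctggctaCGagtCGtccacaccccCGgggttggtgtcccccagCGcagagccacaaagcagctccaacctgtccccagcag
Zic4 intron, chr9:91374784-91374983: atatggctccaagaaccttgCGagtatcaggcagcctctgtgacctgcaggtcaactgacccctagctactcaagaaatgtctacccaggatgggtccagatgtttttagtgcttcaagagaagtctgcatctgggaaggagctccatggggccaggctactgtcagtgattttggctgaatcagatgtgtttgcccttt

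The Zic2 stretch held 8 CG and the Zic4 stretch held 1.

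**Figure D3:**
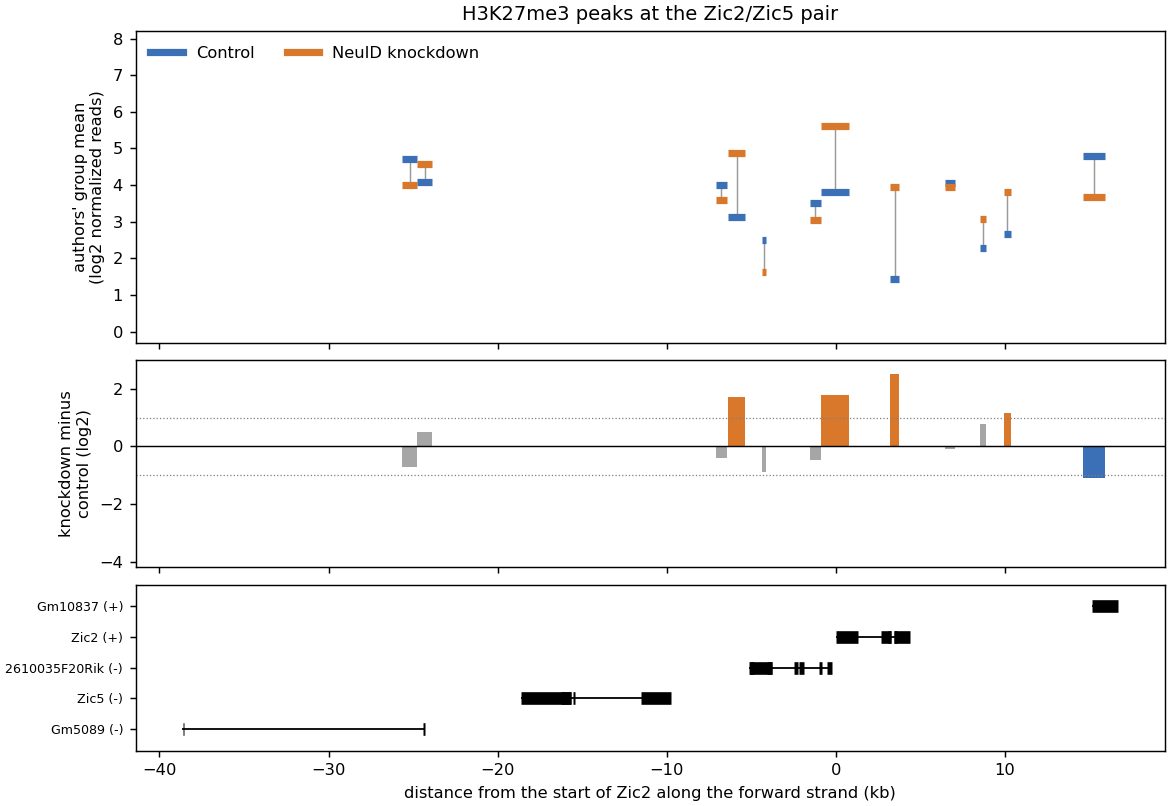
H3K27me3 at the Zic2/Zic5 pair. Panels are as in the map of the Zic1/Zic4 pair, for 12 peaks, with distance counted from the Zic2 start; both peaks on Zic2 are higher in the knockdown, and the body of Zic5 holds no peak.

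No listed peak overlapped Zic5 or its start. The nearest lay 2689 bases upstream of the start (chr14:122468366-122468987), at 3.99 and 3.60, and the gap around the gene was 16.8 kb long. Such a gap was uncommon among genes with many peaks nearby: of 378 protein-coding genes with at least 10 peaks in the window, 12 had none over the gene body, Zic5 among them. A region outside the listed peaks has no value here, so a low level of H3K27me3 over Zic5 was not measurable in either group.

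The remaining peaks of this pair were mixed. Between the starts of Zic5 and Zic2, a 991 base intergenic peak (chr14:122469081-122470071) was at 3.14 and 4.87. Its 3 neighbours in this interval were all on the other side of 0. They included a 240 base peak in a non-coding exon of 2610035F20Rik (chr14:122471099-122471338), at 2.50 and 1.62, and one 887 bases upstream of Zic2 (chr14:122473928-122474548), at 3.52 and 3.06. The latter ended 3 bases before the peak over the Zic2 start, whose difference was 1.79. Downstream of Zic2, the fourth higher peak (chr14:122485371-122485798, intergenic) was at 2.66 and 3.82. The lower peak (chr14:122490088-122491337) covered the start of Gm10837, a predicted coding gene, at 4.79 and 3.67. On the far side of Zic5, 2 peaks at Gm5089 were at 4.72 and 4.01 (chr14:122449794-122450656) and at 4.09 and 4.58 (chr14:122450688-122451585).

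At Zic2/Zic5, 8 of 11 adjacent pairs of peaks had differences of opposite sign, and at Zic1/Zic4 12 of 28 did. The share among all adjacent listed peaks was not computed. Of all listed peaks, 12023 had a difference below 0 and 11645 had a difference above 0. Of the 12 peaks at Zic2/Zic5, 6 reached an overall mean of 4, and of these 1 was lower and 2 were higher. Among its 6 weaker peaks, 0 were lower and 2 were higher. Of all listed peaks with a mean of at least 4, 9.12% were lower and 5.02% higher. Of all weaker listed peaks, 22.5% were lower and 22.9% higher.

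The window edges cut the domains unequally. The peaks just inside the Zic1/Zic4 window had differences of -2.29 at one end and -2.00 at the other. The next peak after it, 191 bases beyond the edge (chr9:91409539-91410358), was at 3.56 and 4.12, and the next before it lay 276 kb away, at 3.40 and 0.41. At Zic2/Zic5 the outermost inside peaks had differences of -0.70 and -1.11. Outside, the nearest peak lay 18.4 kb from the edge (chr14:122418091-122418392), at 0.56 in the control and 3.42 in the knockdown.

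Base composition differed between the pairs more than between lower and higher peaks within them. At Zic1/Zic4 the 6 lower peaks had a median GC content of 38.7% and the 2 higher peaks one of 39.5%. At Zic2/Zic5 the lower peak had 54.7% and the 4 higher peaks a median of 60.3%. Over both pairs, the median was 39.5% for lower peaks, 49.0% for higher peaks and 48.9% for those within the limit. Both Zic2 peaks had the highest GC content of the 41, at 70.0% and 71.8%. The CpG content of the Zic2 start peak, as the ratio of observed to expected CG, was 0.90. That of the lower Zic1/Zic4 peaks was 0.12 to 0.26, and that of the 2 higher ones 0.12 and 0.42. The Zic1 start peak, within the limit at -0.21, had a ratio of 0.92. Of the 4729 listed peaks with the lowest GC content, 25.2% were lower and 22.2% higher. Of the 4729 with the highest, 14.7% were lower and 17.7% higher. An overall mean of at least 4 was reached by 204 peaks of the low-GC set and 1533 of the high-GC set. Among these stronger peaks, 16.7% and 5.74% were lower, and 4.90% and 5.41% were higher. Among the weaker peaks of the low-GC and high-GC sets, 25.5% and 18.9% were lower, and 22.9% and 23.6% were higher. Within each strength class, low GC content thus went with more lower peaks but not with more higher peaks. The part of GC content in the differences at the Zic genes was not tested.

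**Figure D4:**
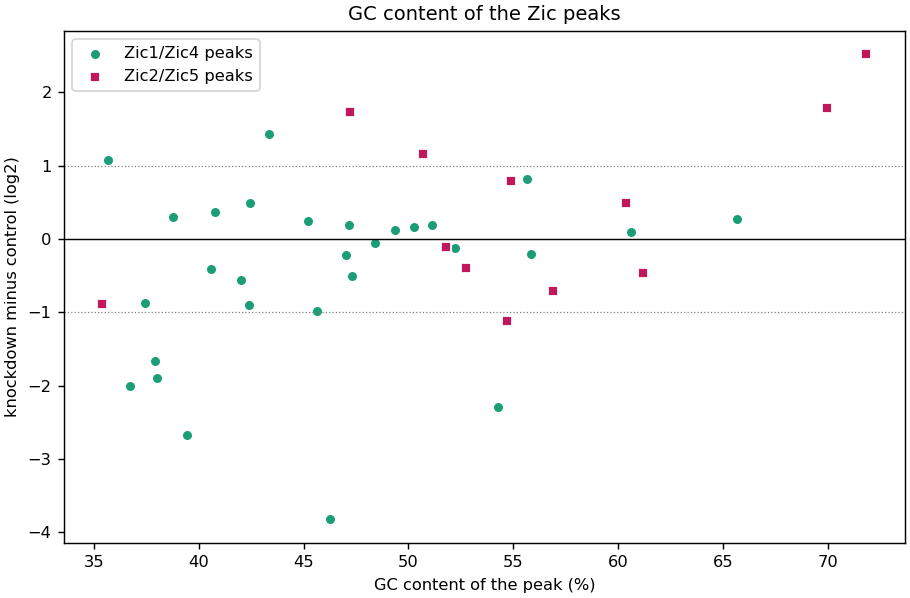
Difference of the group means (knockdown minus control, log2) against the GC content of each of the 41 Zic peaks, with dotted lines at the limit of 1. The 2 squares near 70% GC are the peaks on Zic2. Of the 6 lower circles, 5 lie at 46.3% GC or less, and so do both higher circles. The median of all 29 circles is 45.6% GC.

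Gene windows were then set beside each other, gene by gene, with the same 20 kb rule. Among 1253 protein-coding genes with at least 5 peaks in the window, the median log2 ratio of summed reads was -0.07, with quartiles of -0.27 and 0.16. Zic1 was at -0.07 and Zic4 at -0.08, near the middle. Zic2 was at 0.55 and Zic5 at 0.59, and 6.07% and 5.43% of these genes had higher ratios. For the merged window of the pair, the ratio was 0.40, and 0.15 without the peak over the Zic2 start. The quartiles are of single-gene windows, so this value is not set against them. The Zic2 and Zic5 windows without that peak were not computed. Windows of partner genes share most of their peaks, so Zic2 and Zic5 are not separate observations.

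**Figure D5:**
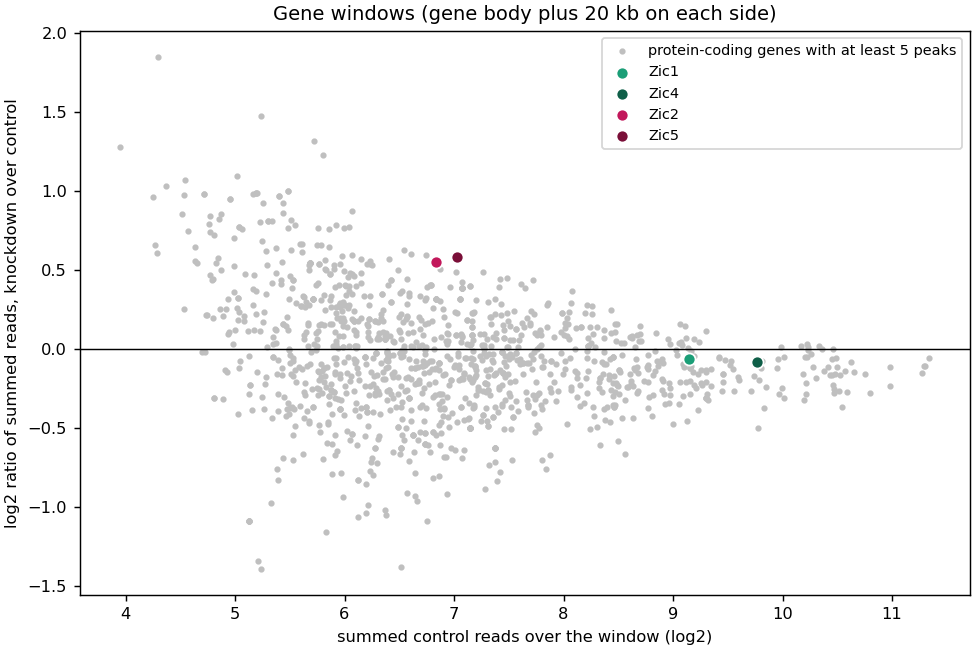
Log2 ratio of summed reads (knockdown over control) against summed control reads (log2) in windows of gene body plus 20 kb, for 1253 protein-coding genes with at least 5 peaks. Zic1 and Zic4 lie within the grey points, and Zic2 and Zic5 lie above most of them.

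By the distance between windows in summed control and summed knockdown reads (log2), over these 2 group means, Pax2 and Tfap2a were among the 3 genes most like Zic1/Zic4. For Zic2/Zic5 the 3 were Hes2, Slc12a5 and Flt4. Since both means entered the distance, the ratios of these genes are near those of the pairs by construction.

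Windows of other developmental families had summed reads of 90.3% of the control at the Dlx genes (48 peaks), 91.0% at the Irx genes (57 peaks) and 91.3% at the sine oculis homeobox genes (53 peaks). Higher peaks numbered 0 of 48, 5 of 57 and 2 of 53 there, 2 of 29 at Zic1/Zic4 and 4 of 12 at Zic2/Zic5, beside 20.4% of all listed peaks. Lower peaks numbered 9 of 48, 4 of 57 and 9 of 53, and 6 of 29 and 1 of 12 at the Zic pairs, beside 20.6%. These windows held more of the stronger peaks. A mean of at least 4 was reached by 27, 32 and 23 of the family peaks, beside 3344 of all 23668. Of all listed peaks of that strength, 9.12% were lower and 5.02% higher, and their summed reads were 93.0% of the control. Whether these families differ from the Zic pairs was not tested.

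The other genes of the tissues in which Zic factors act were read from a list of 23, from the roof plate, dorsal neural tube, cerebellar and neural crest programs. All 23 had a listed peak in their window, as did 42.0% of all 21938 protein-coding genes. Of the 272 peaks of the list, 42 (15.4%) were lower and 26 (9.56%) higher. The shares over all listed peaks were 20.6% and 20.4%, but the list held more of the stronger peaks. Of its 272 peaks, 129 had a mean of at least 4, beside 3344 of all 23668. Peaks of that strength were lower in 9.12% and higher in 5.02% of cases, weaker ones in 22.5% and 22.9%. The shares of the list were not compared at equal strength. The median difference was -0.15. Summed reads were below the control at 16 genes and above it at 7. The median log2 ratio of the 1253 protein-coding genes with at least 5 peaks was also below 0, at -0.07. Within the list, En2, a midbrain and cerebellar homeobox gene, had the lowest ratio. It was at 63.0% of the control over 14 peaks, of which 3 were lower. Its lowest and highest differences were -2.33 and -0.19. Gli2, a hedgehog effector, had the highest, at 339%, over 2 weak peaks with summed reads of 5.59 and 19.0. Atoh1, which defines cerebellar granule precursors, held 5 peaks with none past the limit and 107% of the control. Pax3, a dorsal neural tube and neural crest factor, had the most peaks, 44, of which 7 were lower and 4 higher, with 89.5% of the control. Wnt1, a roof plate signal, was at 107% over 12 peaks, and Msx2, a roof plate homeobox factor, at 73.3% over 16 peaks, of which 3 were lower and 0 higher.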

How the data were processed

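H3K27me3 ChIP-seq of primary hippocampal neurons was examined. Per the study's methods, the authors used bowtie2 to map single-end reads to mm10, took broad MACS2 peaks at q below 0.1 and compared groups with DiffBind and its DESeq2 option. The submitters' processing notes name Bowtie2, MACS2 and GRCm38. Normalization, input subtraction, duplicate removal and peak merging were not given in the sources used here. The authors deposited log2 means of normalized reads per peak, overall and per group. Their fold, p-value and FDR columns were not used. The depth of the libraries is unknown here and no interval is given. Further per-sample columns left unused numbered 0.

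Differences, sums of means taken back to the linear scale, overlaps with GENCODE M21 (at least 1 base) and base composition (GRCm38.p6) were computed in Python 3.11.15 with numpy 2.4.6 and pandas 2.3.3. No test was run. Of the listed peaks, 23642 fell within the bounds of the 21 chromosomes and 26 were on other sequences. Peaks of similar strength share 1 of 10 equal groups by overall mean. Named peaks were those within 1 kb of a member's gene start, the widest, the strongest and the 3 lowest and 3 highest differences in each pair; other peaks complete a count, a neighbourhood or a window edge, or were picked after their values were seen. No member had a group listed at 0. The members and lists were chosen with earlier results of these data known. Some items of the fixed lists and rules are not reported here. Window and summary code was tested on simulated data. Alternatives were other limits, windows, filters and centring.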

Additional observations from a re-analysis of the deposited data

How the results depend on the processing

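No paired analysis was possible because each group enters as a single mean, which also prevented leaving out any library. Of 68 alternative values, 32 stayed within 1.5 times the count or within 0.1 on the log2 scale with the same sign, 28 moved further and 8 changed sign. No peak of either pair was listed at 0, so that filter removed none.

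At Zic1/Zic4, the 6 lower and 2 higher peaks became 0 and 0 among peaks whose overall mean reached 4 and also with a width of at least 1 kb, and 2 and 0 over the gene bodies alone and with 5 kb on each side. A limit of 0.5 gave 11 lower, and a limit of 2 gave 0 higher. The median difference of -0.12 changed sign to 0.12 among peaks whose overall mean reached 4, to 0.16 with a width of at least 1 kb, to 0.024 over the gene bodies and to 0.10 with 5 kb and with 50 kb, and was -0.014 when centred on peaks of similar strength. The log2 ratio of summed reads, -0.08, became 0.028 among peaks whose overall mean reached 4 and 0.051 with a width of at least 1 kb, and 0.010 with 5 kb on each side. The direction at Zic1/Zic4 thus changed with the strength and width filters and with the window.

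At Zic2/Zic5, the 4 higher peaks became 2 among peaks whose overall mean reached 4, 1 with a width of at least 1 kb, 2 over the gene bodies and 1 at a limit of 2. The 1 lower peak became 0 over the gene bodies, with 5 kb and at a limit of 2, and 3 at a limit of 0.5. The median difference of 0.19 moved to 0.34 with a width of at least 1 kb, to 2.15 over the gene bodies, to 0.34 with 5 kb, to 0.49 with 50 kb and to 0.30 when centred on peaks of similar strength. The log2 ratio of summed reads, 0.40, moved to 0.56 with a width of at least 1 kb, 1.93 over the gene bodies, 0.81 with 5 kb and 0.15 without the strongest peak. It stayed above 0 in each of these. The cause of these moves was not tested.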

Other observations

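The Zic1/Zic4 domain ran on past its window. Between 20 and 50 kb from the genes, 8 more listed peaks lay downstream of Zic4, all in an intron of the lincRNA gene Gm29478, the last ending at position 91425174 of chromosome 9, and none lay on the other side. Of these 8, 1 was lower and 1 higher in the knockdown, beside 20.6% lower and 20.4% higher among all listed peaks. Their median difference was 0.38. The lower one (chr9:91421382-91421947) was at 3.52 in the control and 0.93 in the knockdown, the higher one (chr9:91424913-91425174) at 1.69 and 3.29. At the same distance from Zic2/Zic5 there was 1 peak, described above with the window edges.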
